A study of Mus musculus with 10 samples.

Results

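The cytochrome P450 genes other than Cyp11a1, Cyp17a1 and Cyp51 were examined in whole testes of 10 day old mice. They were all probe sets (groups of short probes read as 1 value) annotated to a single gene whose symbol is Cyp followed by a digit. The rule gave 73 probe sets for 60 genes, of 22690 probe sets on the array and 12393 genes with a probe set of their own. Another 4 probe sets that list several P450 genes were not members. The label of the set is not exact, because the rule still holds Cyp21a1 and Cyp11b2, which make adrenal steroid hormones. Control mice carried AMHCre, a Cre transgene driven by the promoter of anti-Müllerian hormone, which is active in Sertoli cells. In SCARKO mice the androgen response was removed selectively in Sertoli cells, the somatic cells that nurse germ cells in the seminiferous tubule. Each group had 5 pools at day 10, and each pool combined RNA from 1 testis of each of 3 mice. Control and SCARKO pools of littermates formed 5 numbered pairs. Testosterone-producing Leydig cells and the other cells of the testis keep their own androgen response in this model.

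P450 enzymes are heme proteins that insert oxygen into lipids, hormones and foreign chemicals. Those in the endoplasmic reticulum receive electrons from a reductase or cytochrome b5, and those in mitochondria from a ferredoxin. In the testis the best known members make androgens from cholesterol, and others break down retinoic acid, a signal for germ cell entry into meiosis. Most members of the Cyp2 and Cyp3 families are known mainly from liver.

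Groups came from the sample titles. In pairs 1 to 4 the sample descriptions name the other genotype, while in pair 5 title and description match. Every direction below rests on the titles, and the targeted gene was not used to check them. Signals were linear intensities scaled to the same trimmed mean on every array, with medians of 36.4 to 37.6. Markers of Sertoli cells (10 genes), germ cells (7), Leydig cells (5), myoid cells (5), macrophages (8) and endothelium (6) that were on the array all passed the filter on dim signals described next. None of the markers of epididymis (3), fat (2), liver (3) or erythroid cells (1) passed. Summed signals of every list overlapped between groups, for example 5058 to 5409 in control and 4820.5 to 5142 in SCARKO pools for Sertoli markers. Of these markers, 2 Sertoli genes (Gata1 and Cldn11) and the germ cell gene Stag3 fell and the Sertoli gene Fshr rose. No marker of Leydig cells, myoid cells, macrophages or endothelium did either. Over all genes tested, 5.69% were called in either direction (limma adjusted p under 0.05). The part of these marker shifts in the results below was not tested. The ratio of 3′ to 5′ signal of Gapdh was 0.611 to 0.640 in control and 0.618 to 0.657 in SCARKO pools.

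Most of the family was dim in these testes. A probe set was tested when its mean log2 signal over the 10 arrays was outside the lowest 40%, which required 4.27 on the log2 scale, a signal of 19.3. Of the 73 probe sets, 8 passed, for 7 genes: Cyp27a1, Cyp2s1, Cyp4f13, Cyp2d22, Cyp1b1, Cyp39a1 and Cyp4f16. The other 53 genes had no probe set above the filter, and 42 genes stayed under a signal of 10 on every array and probe set. Just inside the filter was a second probe set of Cyp2d22, at a signal of 20.3 (the antilog of its mean log2 value), and just outside was one of Cyp4v3, at 18.99. Dimness does not show that a transcript was missing, since probe sets differ in how well they bind.

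**Figure D1:**
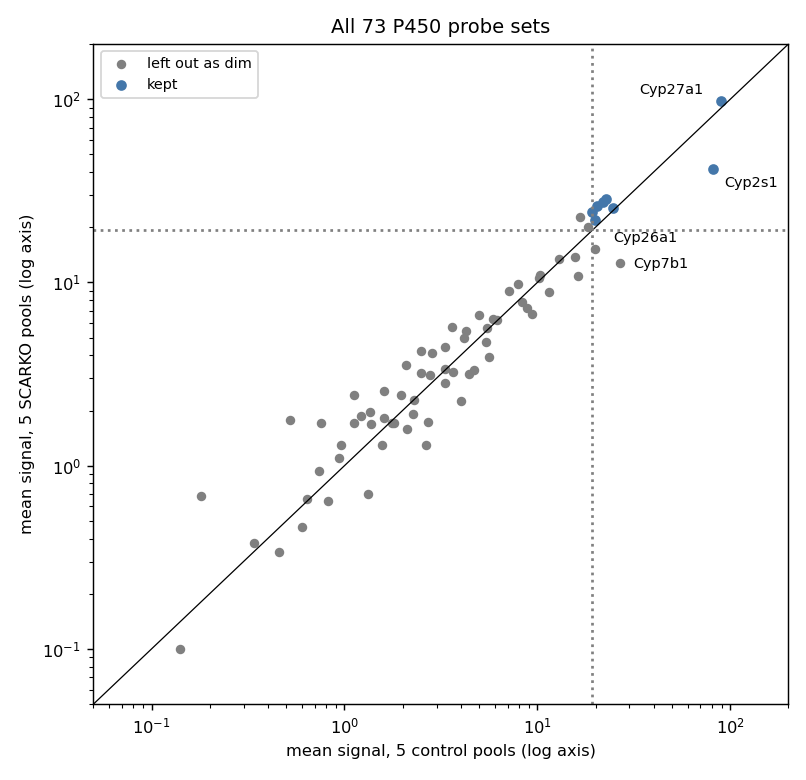
Mean signal of the 73 P450 probe sets in 5 control pools (x axis, log scale) and 5 SCARKO pools (y axis, log scale), with the diagonal of equal signal and dotted lines at the filter's signal of 19.3, shown for orientation because the filter used mean log2 values. Most points lie at low signals in both groups, and Cyp2s1 and Cyp7b1 lie furthest under the diagonal among the brighter ones.

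The clearest change was in Cyp2s1, which encodes an enzyme found mainly outside the liver and reported to act on retinoic acid and oxidised lipids. The 250 bases before its RefSeq start site are shown because it was the 1 member that passed the test, beside the same window of Cyp27a1, a tested member that did not. Sequences run 5′ to 3′ on the gene's strand, in GRCm38.p6, at chr7:25816526-25816775 (minus strand) for Cyp2s1 and chr1:74713285-74713534 (plus strand) for Cyp27a1. Capitals mark CCGCCC, the core of a GC box that Sp1-type factors bind, searched on both strands (GGGCGG on the other).
Cyp2s1: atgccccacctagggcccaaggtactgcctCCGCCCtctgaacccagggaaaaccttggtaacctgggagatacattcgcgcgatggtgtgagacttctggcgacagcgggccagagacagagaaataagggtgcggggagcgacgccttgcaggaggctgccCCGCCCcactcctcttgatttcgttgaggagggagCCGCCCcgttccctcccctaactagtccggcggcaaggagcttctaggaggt
Cyp27a1: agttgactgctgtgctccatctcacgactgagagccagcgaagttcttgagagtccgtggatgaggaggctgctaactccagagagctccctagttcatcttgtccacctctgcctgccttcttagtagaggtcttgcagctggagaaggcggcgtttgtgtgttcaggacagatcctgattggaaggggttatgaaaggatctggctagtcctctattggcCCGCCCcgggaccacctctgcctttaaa

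The Cyp2s1 window held CCGCCC 3 times and the Cyp27a1 window 1 time. The windows of Cyp4f13, Cyp1b1 and Cyp4f16, tested members that did not pass either, also held it 1 time each. No window was listed for the tested members Cyp39a1 and Cyp2d22. The Cyp2s1 window was also the richest in G and C, at 62.0% against 52.8% (Cyp4f13) to 58.0% (Cyp1b1) in the others. At least 1 match was present in 32.9% of the 27025 genes with a listed window, a share that does not say how many held 3. Neither the Cyp2s1 nor the Cyp27a1 window held TGTTCT or its complement AGAACA, the core of response elements of the glucocorticoid type. Of all windows, 16.2% held it. Neither held GCGTG or CACGC, the core bound by the aryl hydrocarbon receptor, which 28.2% of all windows held. Windows were listed for 44 of the 60 member genes, of which 14 (31.8%) held CCGCCC or its complement, 8 (18.2%) TGTTCT or its complement and 10 (22.7%) the aryl hydrocarbon core. These shares describe letters in a short window, and distant sites were not examined.

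Cyp2s1 (gene ID 74134) had signals of 85.7, 53.1, 95.1, 74.7 and 100.1 in control pools 1 to 5. In SCARKO pools 1 to 5 it had signals of 40.6, 35.4, 49.7, 36.6 and 44.8. Every SCARKO pool lay below every control pool, and the lowest control signal belonged to pair 2. The means were 81.7 ± 18.7 and 41.4 ± 5.92 (SD, n = 5), 1.94-fold lower in SCARKO on the log scale. The log2 fold change, SCARKO minus control, was -0.96 (SE 0.09, 95% confidence interval -1.16 to -0.75, limma adjusted p = 0.00033). It fell in 5 of 5 pairs, with log2 ratios of -1.08, -0.58, -0.94, -1.03 and -1.16 in pairs 1 to 5. Pair 5, whose labels do not conflict, thus showed the same direction as the others. In whole testis, fewer cells of a type and less RNA per cell cannot be told apart. By size of fall Cyp2s1 ranked 16 of the 7973 genes tested, each represented by its brightest kept probe set.

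Of the 7 member genes tested, 1 fell and 0 rose in limma, with 4 at an unadjusted p under 0.05. Over all 7973 genes tested, 5.69% were called, 3.52% lower and 2.17% higher, and 21.7% had an unadjusted p under 0.05. Groups did not overlap for 1 of the 7 members and for 5.26% of all genes. A change in the same direction in 5 of 5 pairs was seen for 3 of the 7 members and for 19.9% of all genes. The filter used the mean over both groups, so which members were tested depended in part on their change, and nothing is read from these counts about the family. It admitted Cyp4f16 and the second probe set of Cyp2d22 through SCARKO alone, since their control means were 4.25 on the log2 scale, and left out Cyp7b1, whose control mean was 4.73.

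Cyp2s1 lies at the edge of a cluster of Cyp2 genes in the gene order of GRCm38.p6. Its nearest protein-coding neighbours on that side, Cyp2b10, Cyp2b13 and Cyp2b9, were dim, with signals of at most 5.4 on any array for the Cyp2b subfamily. On its other side the receptor kinase gene Axl had a log2 fold change of 0.03 (limma adjusted p = 0.77) and Hnrnpul1 one of -0.06 (adjusted p = 0.75). The nearest called gene on that side, at the fourth place, was Tgfb1, a growth factor gene, which fell by 0.47 on the log2 scale (adjusted p = 0.031).

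**Figure D2:**
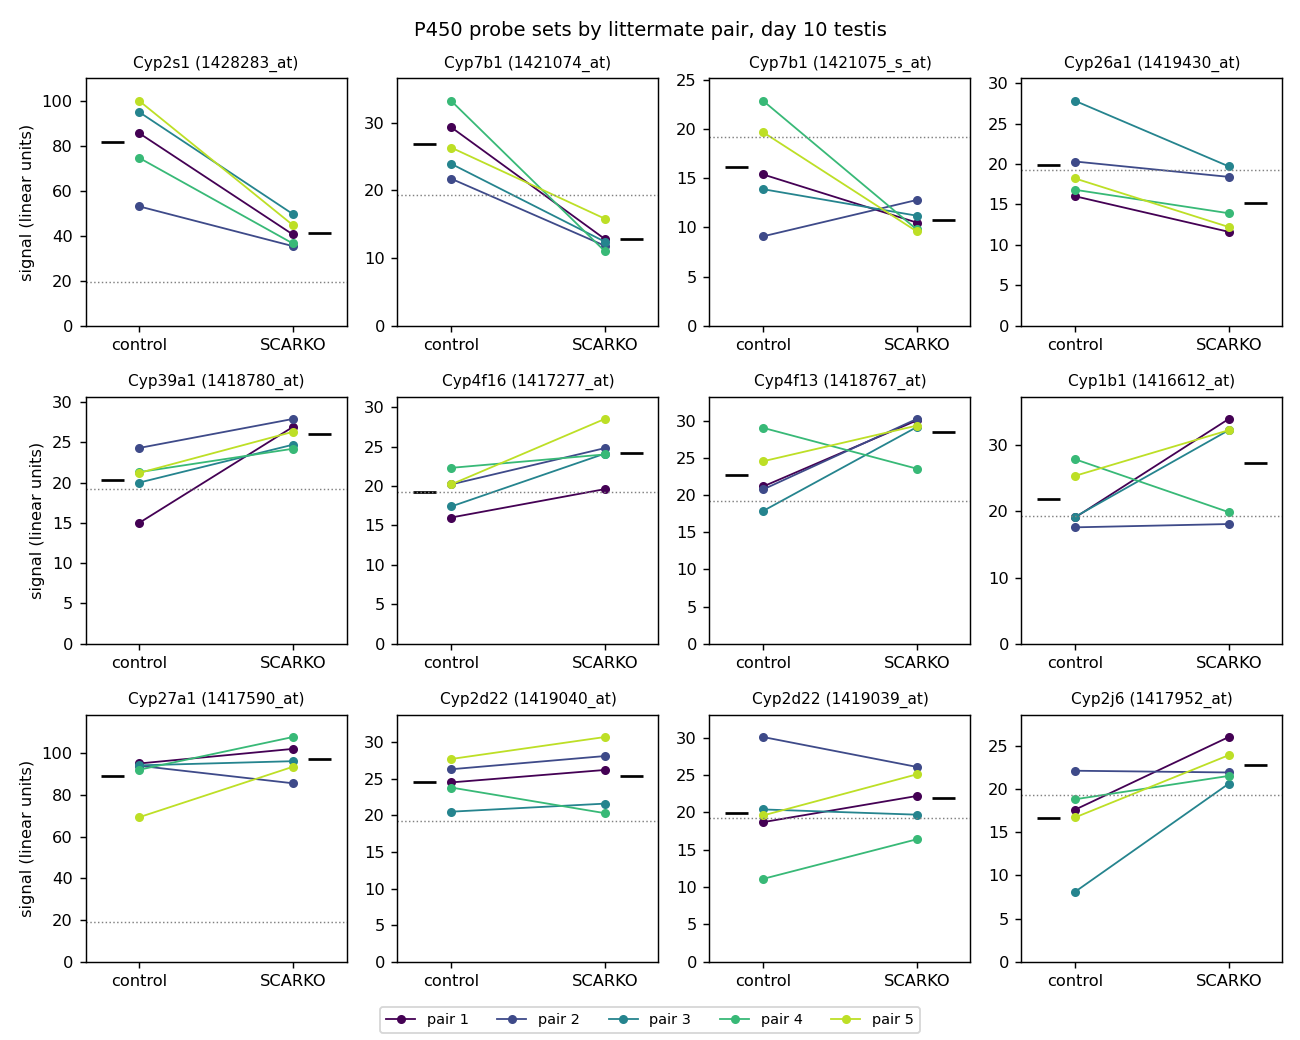
Signal of 12 P450 probe sets (y axis, linear units from 0) in control and SCARKO pools, with a line joining each littermate pair, short black bars at group means (n = 5) and a dotted line at the filter's signal of 19.3. All lines fall for Cyp2s1, for the first probe set of Cyp7b1 and for Cyp26a1, and all rise for Cyp39a1 and Cyp4f16.

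Enzymes of sterol, bile acid and vitamin D metabolism made up 8 member genes, of which Cyp27a1 and Cyp39a1 were tested and neither passed. Cyp27a1, the mitochondrial sterol hydroxylase that opens the acidic route of bile acid synthesis, had control signals of 95.2, 94.1, 94.3, 92.2 and 69.4. Its SCARKO signals were 102.2, 85.7, 96.3, 107.9 and 93.6, so the groups overlapped and the low control pool was that of pair 5. The log2 fold change was 0.13 (95% confidence interval -0.05 to 0.31, limma adjusted p = 0.41), and 0.06 without pair 5.

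Cyp39a1, an oxysterol hydroxylase, had signals of 15.0, 24.3, 20, 21.3 and 21.2 in control and 26.9, 27.9, 24.7, 24.2 and 26.3 in SCARKO pools. It was higher in SCARKO in 5 of 5 pairs, and the groups overlapped by the highest control pool alone, at 24.3 against a lowest SCARKO signal of 24.2. The log2 fold change of 0.37 (SE 0.13, 95% confidence interval 0.08 to 0.66) did not pass (limma adjusted p = 0.14). Without pair 1, which had the largest ratio, it was 0.25.

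Cyp7b1, the oxysterol and steroid hydroxylase that also clears androgen-derived diols, was left out by the filter although its groups did not overlap. Its first probe set (gene ID 13123) had control signals of 29.3, 21.7, 23.9, 33.2 and 26.3. Its SCARKO signals were 12.8, 11.8, 12.4, 11 and 15.8, all below every control pool and all under the filter's signal. The group means were 26.9 ± 4.52 and 12.8 ± 1.83 (SD, n = 5), 2.10-fold lower in SCARKO on the log scale, with ratios between -1.59 (pair 4) and -0.74 (pair 5) on the log2 scale. Its mean log2 value of 4.20 stood just under the required 4.27, so the main analysis gave it no test.

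With the lowest 30% left out instead, a setting chosen after these values were seen, the log2 fold change of Cyp7b1 was -1.07 (SE 0.15, limma adjusted p = 0.0031). Both of its group means, 4.73 and 3.66 on the log2 scale, exceeded that setting's limit of 3.15. There, 2 member genes, Cyp2s1 and Cyp7b1, fell, and 3.05% of all genes were called lower. With no filter, as planned, Cyp7b1 did not pass (limma adjusted p = 0.074). With the lowest 35% left out, where 3.3% of all genes were called lower, it was admitted through the control pools alone (limit 3.72), so its call there is not used. With no filter and 16 added before log2, added later too, Cyp7b1 had a log2 fold change of -0.57 (limma adjusted p = 0.013). The other probe set had control signals of 15.4, 9.1, 13.9, 22.9 and 19.7 and SCARKO signals of 10.5, 12.8, 11.2, 9.8 and 9.6. It was lower in 4 of 5 pairs, with overlapping groups and a log2 fold change of -0.53 that did not pass (adjusted p = 0.24 with the lowest 30% left out).

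The remaining sterol and vitamin D members were dim. Cyp46a1, the brain cholesterol hydroxylase, ranged from 10.2 to 20.4 over the 10 arrays. Cyp7a1, the rate-limiting enzyme of the classic bile acid route, reached at most 7.5 and Cyp8b1, which acts further along it, at most 10.1. Cyp27b1, which activates vitamin D, reached at most 3.1, and Cyp24a1, which inactivates it, at most 5.8.

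Cyp26a1, which degrades retinoic acid, was the 1 gene of the Cyp26 family among the members, and Cyp26b1 had no member probe set. Cyp26a1 had signals of 16, 20.3, 27.8, 16.8 and 18.2 in control and 11.6, 18.4, 19.7, 13.9 and 12.2 in SCARKO pools, and lay below the filter. The signal was lower in SCARKO in 5 of 5 pairs, while the groups overlapped. Without a filter the log2 fold change was -0.39 (SE 0.11), which did not pass (limma adjusted p = 0.21), nor did it with the lowest 30% left out (adjusted p = 0.14).

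**Figure D3:**
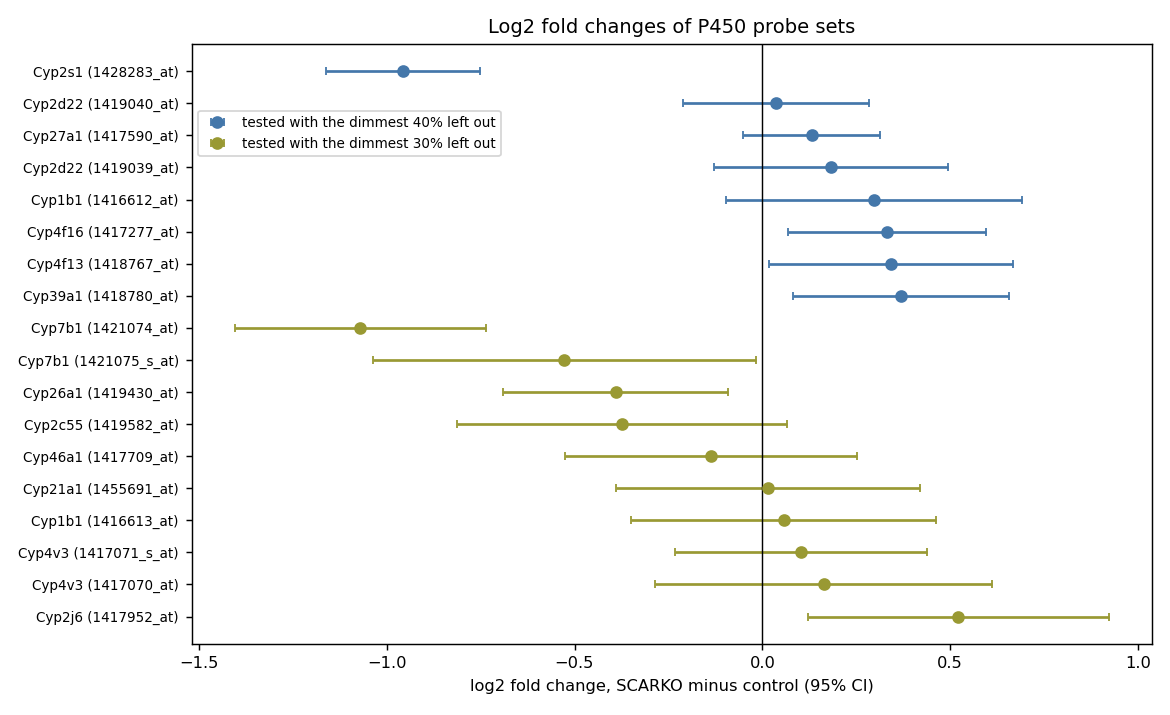
Log2 fold change (x axis, SCARKO minus control, points with 95% confidence intervals) of the 8 P450 probe sets tested with the dimmest 40% left out and of the 10 more that enter with the dimmest 30% left out. Cyp2s1 and the first probe set of Cyp7b1 lie near -1, at -0.96 and -1.07, and intervals are not adjusted for the number of probe sets.

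The Cyp4 family hydroxylates the end of fatty acid chains. Of its 10 member genes, Cyp4f13 and Cyp4f16 were tested, and neither passed. Cyp4f16 had signals of 16, 20.2, 17.4, 22.3 and 20.2 in control and 19.6, 24.8, 24.1, 24 and 28.5 in SCARKO pools. It was higher in SCARKO in 5 of 5 pairs with overlapping groups, and its log2 fold change of 0.33 (95% confidence interval 0.07 to 0.60) did not pass (limma adjusted p = 0.14). It entered the test through its higher SCARKO pools, and without a filter its adjusted p was 0.22. Its other probe set was dim and had a log2 fold change of -0.43 without a filter (adjusted p = 0.70), so the 2 probe sets disagreed in sign.

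Cyp4f13 had signals of 21.2, 20.8, 17.9, 29.1 and 24.6 in control and 30.1, 30.3, 29.2, 23.6 and 29.4 in SCARKO pools. It was higher in 4 of 5 pairs and lower in pair 4, which held both the highest control and the lowest SCARKO signal. The log2 fold change was 0.34 (95% confidence interval 0.02 to 0.67, limma adjusted p = 0.21), and 0.50 without pair 4 (adjusted p = 0.072). The Cyp4f genes are close copies of each other, and 1 probe set listing both Cyp4f37 and Cyp4f16 is no member, so their signals may be shared. The other 8 genes were dim: Cyp4v3 ranged from 5.4 to 24.3 over its probe sets, Cyp4b1 from 3.9 to 8.2, the other Cyp4f genes (Cyp4f14, Cyp4f15 and Cyp4f18) reached at most 7.1 and the Cyp4a genes (Cyp4a12a, Cyp4a14 and Cyp4a31) at most 2.3.

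The Cyp1 family is induced by aryl hydrocarbons. Cyp1b1, which also hydroxylates estradiol and retinol, was the 1 of 3 genes tested. Its kept probe set had signals of 19.1, 17.6, 19.2, 27.9 and 25.4 in control and 34.0, 18.1, 32.3, 19.9 and 32.3 in SCARKO pools. Pairs 1, 3 and 5 were clearly higher, pair 2 was nearly level and pair 4 was lower, and the groups overlapped. The log2 fold change of 0.30 (95% confidence interval -0.10 to 0.69) did not pass (limma adjusted p = 0.39), and without pair 4 it was 0.49 (adjusted p = 0.13). Its 2 other probe sets were dim, with signals of at most 12.0 and 4.1. Without a filter their log2 fold changes were 0.06 and 0.40, and neither passed (limma adjusted p = 0.91 and 0.80). Cyp1a1 and Cyp1a2 reached at most 7.1.

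The Cyp2 and Cyp3 families, which oxidise drugs, steroids and arachidonic acid, held 36 member genes, of which Cyp2s1 and Cyp2d22 were tested. Cyp2d22 had signals of 24.5, 26.3, 20.5, 23.8 and 27.7 in control and 26.2, 28.1, 21.6, 20.3 and 30.7 in SCARKO pools for its brighter probe set. The groups overlapped, with a log2 fold change of 0.04 (95% confidence interval -0.21 to 0.28, limma adjusted p = 0.89). The other probe set had signals of 18.7, 30.1, 20.4, 11.1 and 19.6 in control and 22.2, 26.1, 19.7, 16.4 and 25.1 in SCARKO pools. Its log2 fold change of 0.18 did not pass either (adjusted p = 0.51).

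Cyp2j6, of the arachidonic acid epoxygenases, was dim by the filter. It had signals of 17.6, 22.1, 8.1, 18.8 and 16.7 in control and 26.0, 21.9, 20.6, 21.5 and 23.9 in SCARKO pools. It was higher in 4 of 5 pairs, with 1 low control pool in pair 3, and its log2 fold change of 0.52 without a filter did not pass (limma adjusted p = 0.34; 0.14 with the lowest 30% left out). The other Cyp2j genes were Cyp2j5, Cyp2j9 and Cyp2j13.

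Among the rest, all 11 Cyp2c genes (Cyp2c23, Cyp2c29, Cyp2c37, Cyp2c38, Cyp2c39, Cyp2c50, Cyp2c54, Cyp2c55, Cyp2c65, Cyp2c68 and Cyp2c70) stayed at or under a signal of 12.2. The 6 dim Cyp2d genes (Cyp2d9, Cyp2d10, Cyp2d12, Cyp2d13, Cyp2d26 and Cyp2d34) stayed at or under 11.4 and the 4 Cyp2b genes, Cyp2b19 with the 3 named above, at or under 5.4. Cyp2e1, the ethanol oxidiser, ranged from 3.3 to 7.5, Cyp2f2 from 1.2 to 5.6, Cyp2g1 from 0.2 to 3.3 and Cyp2a12 from 0.3 to 1.1. The 5 Cyp3a genes (Cyp3a11, Cyp3a13, Cyp3a16, Cyp3a25 and Cyp3a44) reached at most 4.8. At such signals the log2 ratios of single pairs are not interpretable.

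The adrenal enzymes kept by the rule were also dim. Cyp21a1, the steroid hydroxylase, ranged from 8.7 to 18.5 on its brighter probe set and from 5.5 to 12.6 on the other. Cyp11b2, the aldosterone synthase, ranged from 0.6 to 6.4.

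Without any filter, all 60 genes could be fitted on their brightest probe set. Limma then called 1 lower, Cyp2s1 (adjusted p = 0.047), and 0 higher, against 0.202% and 0.0323% of 12393 genes. An unadjusted p under 0.05 was seen for 5 members (8.33%), namely Cyp2s1, Cyp7b1, Cyp26a1, Cyp39a1 and Cyp4f16, against 16.4% of all genes. Groups did not overlap for 2 of the 60 members, Cyp2s1 and Cyp7b1, against 3.74% of all genes. Log2 fold changes were positive for 37 of the 60 members (61.7%) and for 53.7% of all genes, with medians of 0.12 and 0.02. Since 42 of the 60 members stayed under a signal of 10 on every array, these shares set a dim family beside brighter genes. Many of the signs come from signals near the floor, and nothing is read from them about the family.

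Of 43 listed genes that serve or regulate P450 enzymes, 35 were on the array, 24 passed the filter, 1 fell and 0 rose (5.69% of all genes were called), with 5 at an unadjusted p under 0.05 in limma. Their median log2 fold change was 0.03. The gene that fell was Vdr, the vitamin D receptor, which controls Cyp24a1 and Cyp27b1. It had signals of 74.9, 47.9, 79.2, 68.4 and 68.7 in control and 55.9, 48.1, 45.9, 45.1 and 46.1 in SCARKO pools. It was lower in 4 of 5 pairs and level in pair 2, with a log2 fold change of -0.48 (SE 0.11, limma adjusted p = 0.028). Leaving out pair 1, 3, 4 or 5 ended the call (limma adjusted p = 0.070, 0.12, 0.085 and 0.094), as did a fit with no pair term (adjusted p = 0.052). Its other kept probe set had a log2 fold change of -0.37.

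By role, limma called 0 of 6 electron donors, 0 of 2 membrane partners and 0 of 7 genes of heme synthesis. It also called 0 of 2 epoxide hydrolases and 1 of 7 receptors, Vdr. At an unadjusted p under 0.05 there were 1, 1, 0, 0 and 3 genes, in that order. The 6 electron donors tested, of 11 listed, did not include Por or Fdxr. Fdx1, the ferredoxin of mitochondrial P450 enzymes, had signals of 470.5 ± 64.1 in control and 483 ± 63.3 in SCARKO pools (SD, n = 5; log2 fold change 0.04, 95% confidence interval -0.15 to 0.22, limma adjusted p = 0.84). Pgrmc1, a heme-binding partner, was lower in SCARKO in 5 of 5 pairs with a log2 fold change of -0.12 that did not pass (limma adjusted p = 0.058). The other membrane partner, Pgrmc2, was higher in 5 of 5 pairs, with a log2 fold change of 0.12 that did not pass (adjusted p = 0.26). Cyb5a, the electron donor with an unadjusted p under 0.05, was lower in 4 of 5 pairs. Its log2 fold change of -0.14 did not pass (limma adjusted p = 0.12). Ahr, the aryl hydrocarbon receptor, was higher in 5 of 5 pairs, with a log2 fold change of 0.29 that did not pass (adjusted p = 0.081). Rxra, which pairs with the vitamin D and retinoic acid receptors, was higher in 5 of 5 pairs, with a log2 fold change of 0.23 that did not pass (adjusted p = 0.15). The other kept probe set of Rxra had a log2 fold change of 0.08. Of all 7973 genes tested, 19.9% changed in the same direction in 5 of 5 pairs.

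**Figure D4:**
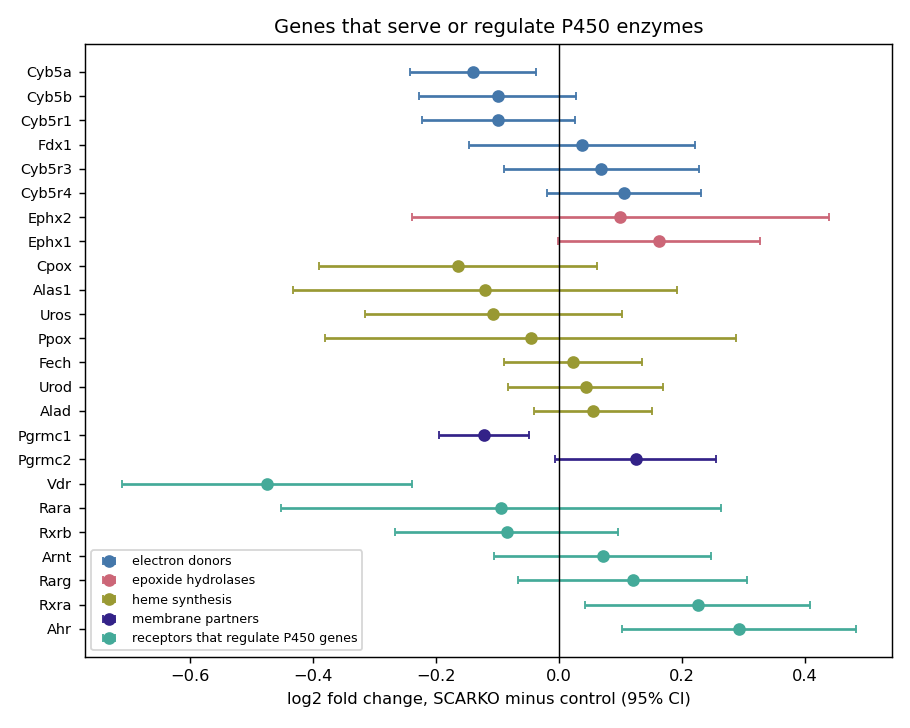
Log2 fold change (x axis, SCARKO minus control, points with 95% confidence intervals, n = 5 pairs) of 24 genes that serve or regulate P450 enzymes, coloured by role. Vdr lies lowest at -0.48, and the others lie between -0.16 (Cpox) and 0.29 (Ahr).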

How the data were processed

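RNA pools from whole testes were hybridised to 1 Affymetrix array each. The deposited values were signal intensities on a linear scale, with a mean of 100.03 on all 10 arrays after trimming 2% at each end. MAS5 is named per the submitters' processing notes for 8 arrays and no tool for pair 5, and no version is given in the sources used here. Arrays give no depth, so their number limits the precision.

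The 64 array controls were removed, values under 1 (6.73% to 7.99% per array) were set to 1, and log2 was taken. Leaving out the dimmest 40% by mean log2 kept 13576 probe sets. Each was tested in limma 3.58.1 (R 4.3.3) with littermate pair as a blocking factor and an intensity trend. Tests were two-sided, p-values were adjusted by Benjamini-Hochberg across the kept probe sets, and calls needed an adjusted p under 0.05. The brightest kept probe set stood for a gene. The labels' protocol gives the pairing, and deviations of same-numbered pools correlated at 0.275, 0.186, 0.190, 0.109 and 0.386 for pairs 1 to 5. The highest correlations with a pool of another number were -0.008, 0.078, 0.109, 0.109 and 0.010, so pair 4 stood no closer than a mismatched pool. The fit was also run on simulated data with known changes placed only in probe sets above the filter. That run does not cover dim probe sets or the label conflict.

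Members with a kept probe set, called partner genes and Fdx1 were named by rule. Pool values of Cyp7b1, Cyp26a1, Cyp2j6 and second probe sets were chosen after values were seen. So were the names Pgrmc1, Pgrmc2, Cyb5a, Ahr, Rxra, Cpox, Tgfb1, Axl and Hnrnpul1. Por and Fdxr were not analysed here. The members and lists were chosen with earlier results of these data known. The targeted gene is not reported here.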

Additional observations from a re-analysis of the deposited data

Results flagged for a closer look

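In control pools, the Cyp27a1 signal of pair 5 was 69.4, far from the 92.2 to 95.2 of the other 4. In SCARKO pools, the Cyp4f13 signal of pair 4 was 23.6, apart from the 29.2 to 30.3 of the other 4. The gaps, 0.884 and 0.836 of the group's range, exceed Dixon's limit for 5 values. This held in 2 of 20 groups examined, and chance gives about 1 in 20.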

How the results depend on the processing

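Leaving out any 1 pair kept Cyp2s1 as the 1 member that fell (1 to 1) and 0 that rose (0 to 0), with its log2 fold change between -1.05 and -0.91 (adjusted p 9.5e-05 to 0.0034). No other member was called without the block, with 16 added before log2 (-0.75 for Cyp2s1), after quantile normalization, without the trend or with the least variable kept probe set per gene. The number of member genes that fell was 0 with the lowest 60% left out, since Cyp2s1 was itself left out there, and 2 with the lowest 35% or 30% left out, where Cyp7b1 entered (at 35% through the control pools alone). With groups from the descriptions it was 0, and the log2 fold changes were 0.49 for Cyp2s1 (adjusted p = 0.90) and 0.78 for Cyp7b1 (adjusted p = 0.91, lowest 30% left out). Cyp7b1 with the lowest 30% left out stayed between -1.15 and -0.94 without 1 pair (adjusted p 0.0046 to 0.017), and with neither filter nor trend its adjusted p was 0.15.

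Over the array, 704 probe sets were called in the main analysis, 404 without the replicate block, 38 with no filter, 321 without the trend, 0 with groups from the descriptions (limma, with 611 at an unadjusted p under 0.05) and 304 to 744 without 1 pair. It was 426 without pair 1, 304 without pair 3 and 345 without pair 5. The replicate block changed no member's call. With most members near or under the filter's signal, dimness limits what could be seen, and 16 added before log2 shrinks changes of dim genes.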
